A study of Mus musculus with 8 samples.

Results

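The guanylate-binding proteins (GBPs) and the immunity-related GTPases (IRGs) are families of interferon-inducible GTPases, and 9 of their genes were examined here in mouse tissue labelled as BAT: *Gbp2*, *Gbp3*, *Gbp5*, *Gbp7*, *Irgm1*, *Irgm2*, *Igtp*, *Iigp1* and *Tgtp1*. The members were all spots of the array, controls apart, whose gene name equalled one of these symbols. This gave 13 probes for 8 of the 9 genes, of which 12 were tested, among 33819 probes and 22323 genes tested in all. *Tgtp1* had no probe under its own name. Co mice received 100 μL of saline and Pg mice received sonicated *P. gingivalis* in 100 μL of saline, a single time and into a vein, at a dose that the sample labels print as 108 CFU and the methods as a power of 10. All were male C57BL/6J mice, 12 weeks old, and interscapular BAT was taken 18 h after the injection. Each group had 4 mice with 1 Agilent one-color array per mouse, so the spread between arrays includes the spread between mice, and the small number of arrays limits the precision.

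As background, interferon-γ signals through its receptor and JAK kinases to genes with GAS sites, whereas type I interferons act mainly through a complex with STAT2 and IRF9 that binds ISRE sites. The GBPs and IRGs induced in this way bind to the membranes of vacuoles that hold microbes, and several GBPs also bind lipopolysaccharide and promote caspase activation in the cytosol. Irgm1, Irgm2 and Igtp (also called Irgm3) are regulatory IRGs that sit on host membranes and hold the effector IRGs, such as Iigp1 (Irga6) and Tgtp (Irgb6), in the inactive state.

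The tissue label was set against marker genes. Of 11 brown adipocyte markers, *Ucp1*, *Elovl3*, *Slc27a2* and *Bmp8b* were well above background on none of the 8 arrays, and the other 7 were tested. Those 7, all 8 general adipocyte markers and all 10 skeletal muscle markers were well above background on all 8 arrays. This criterion was thus met by every muscle marker but by only part of the brown adipocyte markers. *Ucp1*, the uncoupling protein that defines brown adipocytes, was not among that part. The summed intensity of the 10 muscle markers was at least 1738363 on every array. No array had a sum above 611094 for the 11 brown adipocyte markers or above 176409 for the 8 general adipocyte markers. These markers did not settle the tissue label, and the make-up of the tissue was not tested. BAT is used below as the label's name. Since Co and Pg arrays filled different rows of a single slide (row 1 for Co, row 2 for Pg, 1 scan), the effect of a row and that of a group cannot be told apart. A Co array had 34760 to 35831 probes well above background, and a Pg array 31132 to 34063.

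Of the 9 genes, all but *Iigp1*, which lies on another chromosome, share a cluster with other members. In RefSeq's GRCm38.p6 annotation, *Gbp5* (chr3:142496934-142522344), *Gbp7* (chr3:142530336-142550151), *Gbp3* (chr3:142560016-142573213) and *Gbp2* (chr3:142620663-142638008) follow each other on chromosome 3. On chromosome 11, *Irgm1* (chr11:48865245-48871420) and *Tgtp1* (chr11:48985329-48992246) lie in one cluster, and *Igtp* (chr11:58199556-58207592) and *Irgm2* (chr11:58214977-58222783) in another.

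Because the members are defined by their response to interferon, the stretches just before their transcription starts are shown, read 5′ to 3′ on the strand of the gene from RefSeq (GRCm38.p6). Capitals mark GAS-type motifs (TTCNNNGAA) and ISRE cores (GAAANNGAAA), each searched on both strands in the 250 bases before and 50 bases after the start. RefSeq's promoter table held 8 of the 9 members, all but *Iigp1*. The stretches end at position -1, the base before the start, and begin at -110, or at -175 for *Gbp5*. The GBP genes come before the IRG genes.
Gbp2, chr3:142620553-142620662, plus strand: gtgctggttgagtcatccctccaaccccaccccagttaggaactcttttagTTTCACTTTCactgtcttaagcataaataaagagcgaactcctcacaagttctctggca
Gbp3, chr3:142559934-142560043, plus strand: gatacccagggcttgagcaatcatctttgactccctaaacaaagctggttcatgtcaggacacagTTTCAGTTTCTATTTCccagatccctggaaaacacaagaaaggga
Gbp5, chr3:142496759-142496933, plus strand: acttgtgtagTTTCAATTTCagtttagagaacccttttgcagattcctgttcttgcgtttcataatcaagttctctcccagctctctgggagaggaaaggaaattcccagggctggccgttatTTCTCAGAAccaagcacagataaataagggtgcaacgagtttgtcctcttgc
Gbp7, chr3:142530226-142530335, plus strand: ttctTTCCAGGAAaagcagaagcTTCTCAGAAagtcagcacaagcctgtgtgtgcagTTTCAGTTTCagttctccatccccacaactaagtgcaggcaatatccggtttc
Irgm1, chr11:48871421-48871530, minus strand: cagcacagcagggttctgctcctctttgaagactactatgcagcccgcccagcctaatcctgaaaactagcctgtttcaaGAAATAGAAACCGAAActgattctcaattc
Irgm2, chr11:58214867-58214976, plus strand: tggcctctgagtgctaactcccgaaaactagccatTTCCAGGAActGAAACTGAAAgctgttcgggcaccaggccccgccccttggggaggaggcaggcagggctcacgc
Igtp, chr11:58199446-58199555, plus strand: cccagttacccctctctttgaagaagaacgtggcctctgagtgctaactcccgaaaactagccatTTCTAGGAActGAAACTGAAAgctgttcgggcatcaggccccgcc
Tgtp1, chr11:48992247-48992356, minus strand: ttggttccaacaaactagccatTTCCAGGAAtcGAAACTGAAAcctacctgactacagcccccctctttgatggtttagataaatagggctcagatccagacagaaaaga

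All 8 members with a promoter held an ISRE core in at least 1 of their promoters, and 5 of the 8 also held a GAS-type motif. Among all 32851 promoters of the table, 3.44% held an ISRE core and 8.30% a GAS-type motif. *Gbp2* had its ISRE core at -59 to -50, and no GAS-type motif. *Gbp3* had overlapping ISRE cores at -45 to -36 and -39 to -30 before the start shown, and neither motif at its other start. *Irgm1* likewise had overlapping cores, at -30 to -21 and -24 to -15. *Gbp5* held GAS-type motifs at -52 to -44 and at -245 to -237, the latter before the stretch printed, and an ISRE core at -165 to -156. *Gbp7* held GAS-type motifs at -106 to -98 and -87 to -79 and an ISRE core at -53 to -44.

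In *Irgm2*, *Igtp* and *Tgtp1* the motifs formed a compact unit, in which a GAS-type motif was followed after 2 bases by an ISRE core (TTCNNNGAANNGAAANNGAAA). This joint pattern, chosen after the sequences were seen, was found in 5 of the 32851 promoters (0.0152%). They belonged to *Irgm2*, *Igtp* and *Tgtp1*, to *Tgtp2* and to *Gm12185*, a gene between *Irgm1* and *Tgtp1* on chromosome 11. The last 80 bases before the *Igtp* start matched the *Irgm2* promoter at 78 of 80 positions when aligned on the joint pattern, and over all 220 bases that lie before both starts the match was at 134 (60.9%). A match of letters is a description of the sequence and not a measured binding site.

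**Figure D1:**
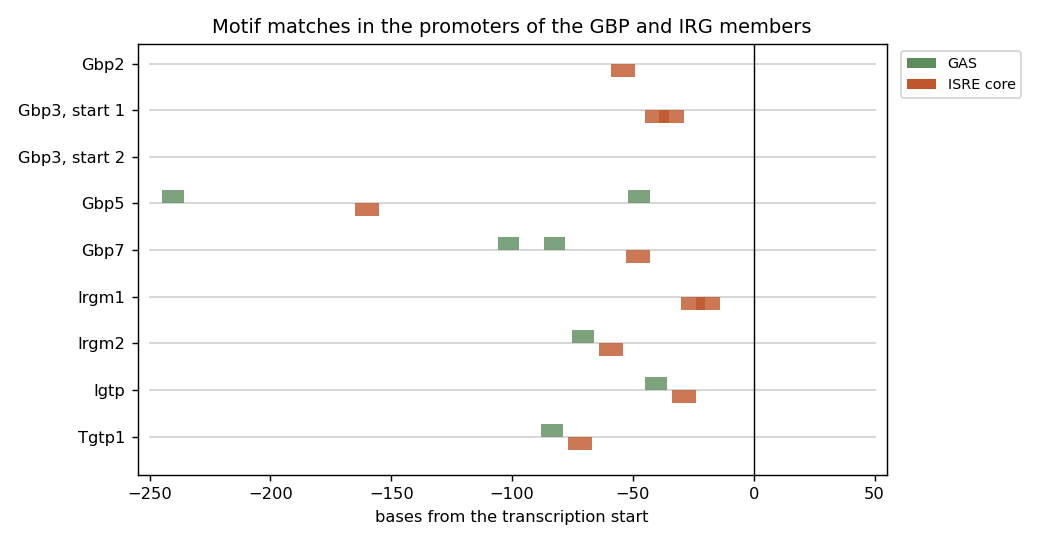
Position of GAS-type motifs (green) and ISRE cores (red) relative to the transcription start, in bases on the horizontal axis, for each promoter of the members on the vertical axis. The GAS-type motif stands next to the ISRE core in *Irgm2*, *Igtp* and *Tgtp1*, the overlapping cores of *Gbp3* and *Irgm1* appear as darker overlaps, and the other *Gbp3* start holds neither.

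The comparison of Pg with Co mice asks whether injected *P. gingivalis* alters expression in the tissue labelled BAT. For a gene with several probes, the probe with the highest mean over the 8 arrays stood for it, and a gene was called at an FDR q under 0.1 with a fold change above 1.5. None of the 8 measured members was called in limma, where 0.323% of all genes were called higher in Pg mice and 1.18% in either direction. None had a q under 0.1 (2.05% of all genes, higher in Pg mice), and 1, *Iigp1*, had an unadjusted p under 0.05 with a higher mean in Pg mice (8% of all genes). The mean was higher in Pg mice for 7 of the 8, against 47.2% of all genes. Their median log2 fold change was 0.21, against -0.01 over all genes tested. For no member did the groups separate, whereas 5.76% of all genes had every Pg array above every Co array. The 13 probes had 1 spot each, with no outlier mark and no saturated spot on any array, and the 12 tested were well above background on all 8 arrays.

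*Iigp1*, an effector IRG that coats parasite vacuoles, had the highest log2 fold change of the members. Its probe for NM_021792 had log2 intensities of 8.72, 9.27, 9.71 and 9.91 on Co 1 to Co 4 and of 10.06, 10.79, 9.73 and 10.61 on Pg 1 to Pg 4. Pg 1, Pg 2 and Pg 4 lay above every Co array, and Pg 3 lay among the Co arrays, so the groups overlapped. The Co mean was 9.40 ± 0.53 (SD, n = 4) and the Pg mean 10.30 ± 0.49 (SD, n = 4). The fold change was 1.86 with a 95% interval of 1.12 to 3.09. The log2 fold change of 0.90 (standard error 0.32) had an unadjusted p of 0.0228 and a q of 0.152 in limma and was not called. The probe for the AK172047 transcript of the same gene had 4.98, 4.81, 5.54 and 5.57 in Co mice and 5.76, 6.51, 5.36 and 6.25 in Pg mice. Again Pg 3 alone lay within the Co range. Its log2 fold change was 0.74 (standard error 0.28, q = 0.174 in limma), and 0.57 to 0.95 with 1 array left out. It moved with the processing, to 0.37 with normexp, 0.41 with the median signal and 0.49 in the authors' values. When arrays were scaled to their 75th percentile it was 0.87, and 0.92 without normalization. With 1 array left out at a time, the log2 fold change of the NM_021792 probe stayed between 0.67 and 1.09 and its q between 0.113 and 0.281.

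*Tgtp1* could not be measured apart from *Tgtp2*, a near-identical copy. The probe named *Tgtp2* lists accessions of both genes, so its signal cannot be assigned to either. Its log2 intensities were 9.79, 10.15, 10.53 and 10.41 on Co 1 to Co 4 and 10.68, 11.56, 10.39 and 11.42 on Pg 1 to Pg 4. As for *Iigp1*, Pg 1, Pg 2 and Pg 4 lay above every Co array and Pg 3 did not. The log2 fold change was 0.79 (standard error 0.29, q = 0.162 in limma).

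The regulatory IRGs were not called either. *Irgm2* had log2 intensities of 9.47, 9.42, 9.85 and 9.97 in Co mice and 9.94, 10.29, 9.70 and 10.12 in Pg mice. *Igtp*, its neighbor on chromosome 11, had 9.43, 9.40, 9.61 and 9.83 in Co mice and 9.77, 10.20, 9.45 and 9.94 in Pg mice. In both genes Pg 2 and Pg 4 were above every Co array, and Pg 1 and Pg 3 were within the Co range. The log2 fold changes were 0.33 (standard error 0.17, q = 0.284 in limma) for *Irgm2* and 0.28 (standard error 0.17, q = 0.372) for *Igtp*. Their 95% intervals, -0.06 to 0.72 and -0.12 to 0.67, overlapped that of *Iigp1*, 0.16 to 1.63 on the log2 scale, and the difference between these genes was not tested. With 1 array left out, *Irgm2* ran from 0.24 to 0.44 and *Igtp* from 0.16 to 0.41, each lowest without Pg 2.

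*Irgm1*, which is also linked to autophagy, had 3 tested probes for NM_008326, and they did not share a direction. The probe with the highest mean had log2 intensities of 10.37, 10.38, 10.47 and 10.27 in Co mice and 10.37, 10.51, 10.20 and 10.30 in Pg mice. Its log2 fold change was -0.03 (95% interval -0.21 to 0.16, q = 0.875 in limma), the only one below 0 among the probes that stood for a member. The other probes had log2 fold changes of 0.12 (95% interval -0.09 to 0.32, q = 0.471) and -0.15 (95% interval -0.36 to 0.07, q = 0.382), and over all settings that held them they ran from 0.05 to 0.18 and from -0.18 to -0.06. All 3 intervals lie under the fold change of 1.5 that a call required, whose log2 is 0.58. The probe for the ENSMUST00000147151 transcript was well above background on no array and was not tested.

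Among the GBP members, *Gbp3* had the highest log2 fold change. Its log2 intensities were 8.34, 8.25, 8.63 and 9.04 in Co mice and 8.82, 9.68, 8.60 and 9.23 in Pg mice, with Pg 2 and Pg 4 above every Co array and the other Pg arrays within the Co range. The log2 fold change was 0.51 (standard error 0.26, q = 0.290 in limma), with a 95% interval of -0.10 to 1.12, and was 0.31 without Pg 2. *Gbp2*, a GBP that is targeted to pathogen vacuoles, had 9.11, 9.17, 9.56 and 9.80 in Co mice and 9.28, 9.88, 9.19 and 9.81 in Pg mice. Here Pg 4 barely passed Co 4, and the log2 fold change was 0.13 (standard error 0.22, q = 0.752 in limma). It was 0.02 without Pg 2 and 0.26 without Co 4. *Gbp7* had 6.65, 6.82, 6.97 and 7.38 in Co mice and 6.56, 7.48, 7.08 and 7.31 in Pg mice. Pg 1 was below every Co array and Pg 2 alone was above them, with a log2 fold change of 0.15 (standard error 0.23, q = 0.728 in limma). That value was 0.03 without Pg 2, 0.33 without Pg 1 and 0.28 without normalization.

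The probes of *Gbp5*, a GBP known for its part in inflammasome activation, gave unlike profiles. The probe for ENSMUST00000197459, which had the higher mean, ran from 9.10 to 9.38 in Co mice and from 9.21 to 9.39 in Pg mice. It was lowest on Co 4, and its log2 fold change was 0.02 (95% interval -0.17 to 0.20, q = 0.922 in limma). The probe for NM_153564 had 7.02, 6.84, 7.12 and 7.39 in Co mice and 7.08, 7.72, 7.03 and 7.46 in Pg mice. It was highest on Pg 2, then Pg 4, then Co 4, the order that *Gbp2* and *Gbp3* also had, and its log2 fold change was 0.23 (standard error 0.18, q = 0.480 in limma), and 0.10 without Pg 2. Neither probe was called.

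**Figure D2:**
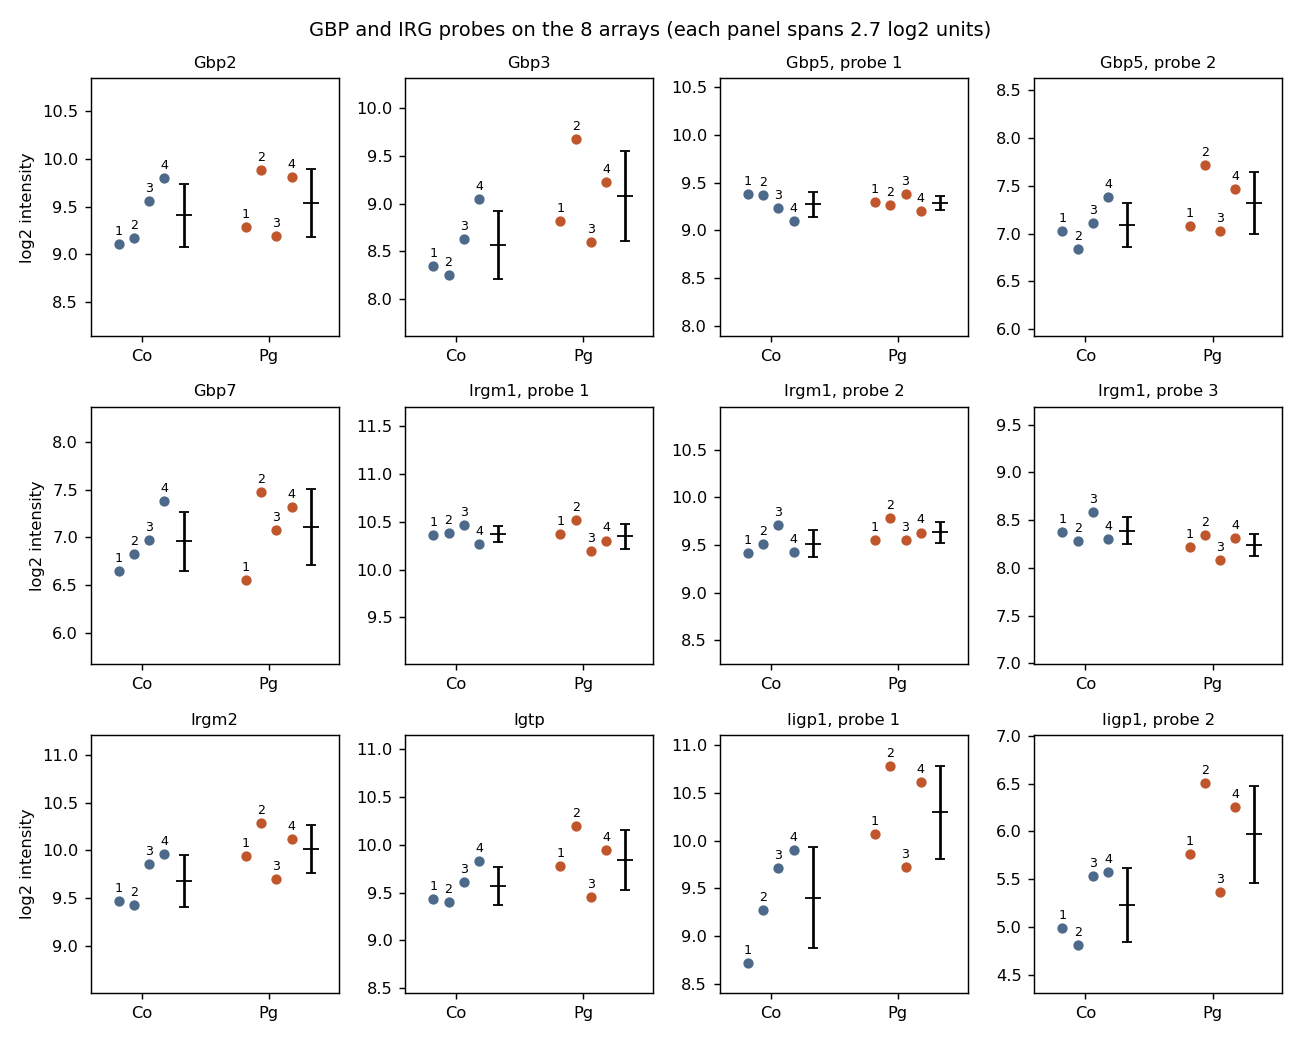
Log2 intensity after quantile normalization of the 12 tested probes on the 4 Co and 4 Pg arrays, with the array number at each point and the mean ± SD beside each group. Every panel spans the same range, probes of a gene are numbered by falling mean, and the Pg points overlap the Co points in all 12 panels, with Pg 2 the highest array in most of them.

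**Figure D3:**
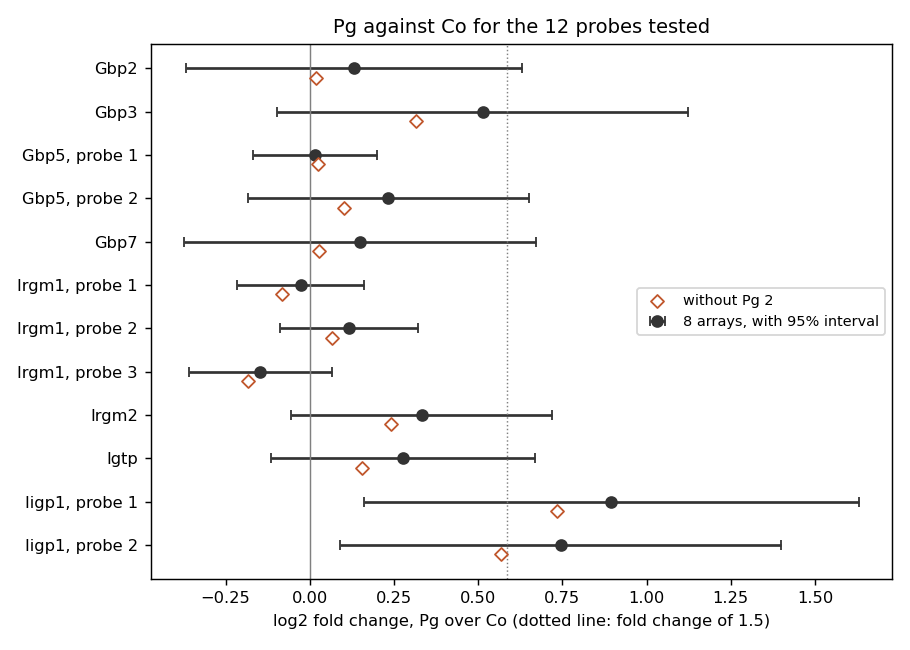
Log2 fold change of Pg over Co for the 12 tested probes, with the 95% interval from limma over 8 arrays (black) and the value without Pg 2 (open diamonds). The intervals lie above 0 only for the *Iigp1* probes, at 0.16 to 1.63 and 0.09 to 1.40, and leaving out Pg 2 lowers the value of every probe but the first *Gbp5* probe.

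The members varied more within the groups than most genes did. The within-group SD of *Iigp1* was 0.51 on the log2 scale, that of *Gbp3* 0.42, of *Gbp7* 0.36, of *Gbp2* 0.34 and of *Irgm2* and *Igtp* 0.26, against a median of 0.15 over all genes tested. For these 6, the SD was above that of 75.6% to 93.1% of all genes. *Irgm1* and *Gbp5*, each with an SD of 0.11, were under that median.

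The variation was shared between the members. Of the 8, 7 had their highest value on Pg 2, an array that was highest for 13.7% of all genes, and 5 had their next highest on Pg 4. Pg 2 was above every Co array for 7 members and Pg 4 for 5, whereas Pg 1 and Pg 3 each were for 1. These arrays were above every Co array for 25.1%, 25.3%, 25.0% and 20.9% of all genes, in the same order. The mean of the centered log2 values of the members was -0.36, -0.29, -0.04 and 0.12 on Co 1 to Co 4, and -0.03, 0.46, -0.13 and 0.27 on Pg 1 to Pg 4. Thus Co 4 lay above Pg 1 and Pg 3, which lay among the Co arrays. Without Pg 2, the median log2 fold change of the members was 0.09, and it was 0.14 without Co 1 and 0.33 without Co 4 or without Pg 3.

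Other genes of both families gave a mixed picture. Of 26 symbols listed, 18 had a probe and 13 were tested, of which 7 had a higher and 6 a lower mean in Pg mice, with none called in limma, 4 at an unadjusted p under 0.05 and a median log2 fold change of 0.04. After *Tgtp2*, the highest values were those of *Gbp4*, at 0.67 (q = 0.176 in limma), and *Gvin1*, which encodes a very large GTPase, at 0.48 (q = 0.149). *Gbp4* had 7.76, 8.18, 8.56 and 8.67 in Co mice and 8.71, 9.37, 8.54 and 9.25 in Pg mice, so that Pg 3 was again the only Pg array within the Co range. Without Pg 3, 3 of the 13 were called in limma, *Tgtp2* at 1.00 (q = 0.0964), *Gm4951* at 0.77 (q = 0.0502) and *Gvin1* at 0.59 (q = 0.0928), whereas without each other array none was. *Gm4951* was at 0.45 (q = 0.409) with all arrays and at 0.29 (q = 0.639) without Pg 2. Without Pg 3, 1.54% of all genes were called, the highest share with any 1 array left out. The median was 0.02 without Co 3 and 0.08 without Co 4 or without Pg 2. It was 0.01 with normexp, 0.03 with the median signal, 0.09 when arrays were scaled to their 75th percentile and 0.14 without normalization. *Gbp2b*, *Gbp8*, *Gbp11*, *Irgc1* and *9930111J21Rik2* were well above background on no array. The probe of *Gm12185*, which shares the joint promoter pattern, was well above background on 1 array and was not tested.

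The interferon pathway upstream of the members was examined through 19 ligands, receptors and signaling genes. *Ifng* and *Ifnb1*, the genes of interferon-γ and interferon-β, were well above background on no array. Of the 17 tested, 11 had a higher and 6 a lower mean in Pg mice, with none called in limma, 3 at an unadjusted p under 0.05 and a median log2 fold change of 0.19. Among genes well above background on all 8 arrays, the largest values were those of *Nlrc5*, a transactivator of MHC class I genes, at 0.50 (q = 0.431 in limma), of *Irf7*, a type I interferon regulator, at 0.43 (q = 0.304), and of *Stat2*, a subunit of the ISRE-binding complex, at 0.42 (q = 0.156). Each of these was highest on Pg 2. *Ciita*, the MHC class II transactivator, was well above background on 7 arrays and was at 0.92 (q = 0.382). The median of the list was 0.07 without Pg 2 and 0.08 without Co 2 (0.12 without Pg 4), and with all arrays it was 0.08 with normexp and 0.06 with the median signal. *Ciita* was called without Pg 3, at 1.46 (q = 0.0955 in limma). It was at 0.50 (q = 0.631) without Pg 2 and at 0.67 (q = 0.577) without Pg 4.

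Other interferon-induced genes were read over the same arrays. Of 16 tested genes induced by type I interferon, 15 had a higher mean in Pg mice and 15 were highest on Pg 2. Their median was 0.36 on the log2 scale, and 0.12 without Pg 2. Called was 1, *Dhx58*, which encodes a cytosolic RNA sensor, at 0.76 (q = 0.0796 in limma), and with each array left out in turn it was called only without Pg 3, where *Oas1a* was called too, at 1.08 (q = 0.0795). None of the 16 was called with the median signal, without normalization or with the replicate block. *Oas1a*, of the antiviral oligoadenylate synthetases, was at 0.87 (q = 0.127) and *Mx2*, an interferon-inducible dynamin-like GTPase, at 0.57 (q = 0.165), with the groups apart for all 3 genes. Of 14 other genes induced by interferon-γ, which serve antigen processing, chemotaxis and T cell control, 12 had a higher mean in Pg mice and none was called in limma, with 2 at an unadjusted p under 0.05 and a median of 0.23. Of these 14, 7 were highest on Pg 2, and their mean centered value was higher on Pg 4 (0.50) than on Pg 2 (0.39). Among them *Cd74*, the invariant chain of MHC class II, was at 0.73 (q = 0.541), the immunoproteasome gene *Psmb9* at 0.49 (q = 0.238), and *Cd274*, which encodes PD-L1, at 0.45 (q = 0.259).

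Genes that act with GBPs and IRGs were examined as well. Of 6 tested genes of cytosolic lipopolysaccharide sensing and the inflammasome, 5 had a higher mean in Pg mice, with none called in limma, 1 at an unadjusted p under 0.05 and a median of 0.20. *Casp4*, the sensor caspase for lipopolysaccharide, was at 0.46 (q = 0.177 in limma), *Gsdmd*, which encodes the pore-forming gasdermin, at 0.20 (q = 0.425), and *Il18* at 0.34 (q = 0.459). Without Pg 3, *Casp4*, at 0.62 (q = 0.0712), and *Il18*, at 0.60 (q = 0.0814), were called (1.54% of all genes were under that setting). Without Pg 2, *Casp4* was at 0.37 (q = 0.321) and *Il18* at 0.16 (q = 0.732). The median was 0.39 without Pg 3 and 0.10 without Pg 2, and with all arrays it was 0.29 without normalization. *Aim2* and *Nlrc4* were well above background on no array. All 15 genes of the ubiquitin, autophagy-conjugation and related machinery that guides these GTPases to vacuoles were tested, and 12 had a higher mean in Pg mice. None was called in limma, and 1 was higher and 1 lower at an unadjusted p under 0.05. Over all 22323 genes tested, 1785 were higher and 2743 lower at that p. The median of the 15 was 0.07 (0.04 without Co 4 or when arrays were scaled to their 75th percentile). Among them were *Traf6*, which encodes a ubiquitin ligase, at 0.17 (q = 0.217), and *Atg12*, which encodes a ubiquitin-like autophagy protein, at 0.15 (q = 0.239).

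Markers of other cell types were read beside the members, since in bulk tissue fewer cells of a type and less RNA per cell cannot be told apart. Macrophages express many of these GTPases. Of 9 tested macrophage markers, 7 had a higher mean in Pg mice, and none was called or had an unadjusted p under 0.05 in limma. Their median log2 fold change was 0.36, led by *Cd14* at 0.99 (q = 0.512 in limma), *Lyz2* at 0.60 (q = 0.464) and *Adgre1* at 0.49 (q = 0.516). That median moved with single arrays, to 0.11 without Pg 4, 0.17 without Pg 2, 0.23 without Co 1 or without Co 2, and 0.60 without Pg 3. The mean centered value of these markers was 0.56 on Pg 2 and 0.74 on Pg 4, -0.64 on Pg 3, and between -0.49 and 0.09 on the Co arrays, and all 10 with a probe were above background on some array. Their summed intensity ran from 34552 to 40504 on the Co arrays and from 33364 to 53069 on the Pg arrays, highest on Pg 2. Their part in the values of the members was not tested.

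Markers of the remaining cell types were read in the same way. Of 4 tested neutrophil markers, all had a higher mean in Pg mice and none was called, though 3 had an unadjusted p under 0.05, with *S100a8* at 2.16 (q = 0.132 in limma) and *S100a9* at 2.04 (q = 0.195), both highest on Pg 1. Without Pg 3, *S100a8* was called, at 2.84 (q = 0.0521). *Ltf*, *Mmp9* and *Ngp* were well above background on no array, and the summed neutrophil intensity was 40032 to 50105 in Co mice and 47457 to 54975 in Pg mice. Of 5 tested T and NK cell markers, 2 had a higher mean in Pg mice and the median of -0.07 ran from -0.11 to 0.02 with 1 array left out, while *Cd3g*, *Gzmb*, *Klrb1c* and *Ncr1* were well above background on no array. *Cd79b*, of 3 tested B cell markers, was called, at 1.69 (q = 0.0867), was highest on Pg 3, and with each array left out in turn was called only without Pg 4. None of the 3 was called without normalization or with the replicate block. Over all 22323 genes tested, 1785 were higher and 2743 lower in Pg mice at an unadjusted p under 0.05 in limma. The groups were apart for 1286 genes with higher and 1911 with lower values. Of 8 endothelial markers, 5 had a higher and 3 a lower mean in Pg mice and none was called. At that p were 2 higher and 1 lower, all 3 with the groups apart. These were *Kdr*, at 0.57 (q = 0.0573, and called without Pg 3, at 0.65), *Egfl7*, at 0.42 (q = 0.0419), and *Pecam1*, at -0.20 (q = 0.151). The mean centered endothelial value was -0.19, -0.15, -0.06 and 0.14 on Co 1 to Co 4 and -0.02, 0.12, 0.04 and 0.11 on Pg 1 to Pg 4, so that, as for the members, Co 4, Pg 2 and Pg 4 were the highest arrays. The summed endothelial intensity was 27354 to 32675 in Co mice and 35989 to 38707 in Pg mice, and the part of these markers in the values of the members was not tested. Of 10 skeletal muscle markers, 2 had a higher and 8 a lower mean in Pg mice and none was called. At an unadjusted p under 0.05, 2 were lower, both with the groups apart, beside the 2743 and 1911 genes given above. These were *Atp2a1*, the fast-muscle calcium pump, at -0.44 (q = 0.0411), and *Ckm*, the muscle creatine kinase, at -0.15 (q = 0.186). Without Pg 1, 6 of the 10 were higher, and none was without normalization or with arrays scaled to their 75th percentile. Of 7 brown adipocyte markers 4 were higher in the mean, and of 8 general adipocyte markers 6, with none called. *Dio2* was called without Pg 3, at 0.74 (q = 0.0706), and was at 0.59 (q = 0.129) with all arrays. With 1 array left out, the median of the endothelial markers ran from 0.05 to 0.20, that of the muscle markers from -0.14 to 0.03, that of the brown adipocyte markers from -0.04 to 0.13 and that of the general adipocyte markers from -0.06 to 0.22, so apart from the endothelial markers no direction held. Scaled to the 75th percentile, the muscle median was -0.17.

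**Figure D4:**
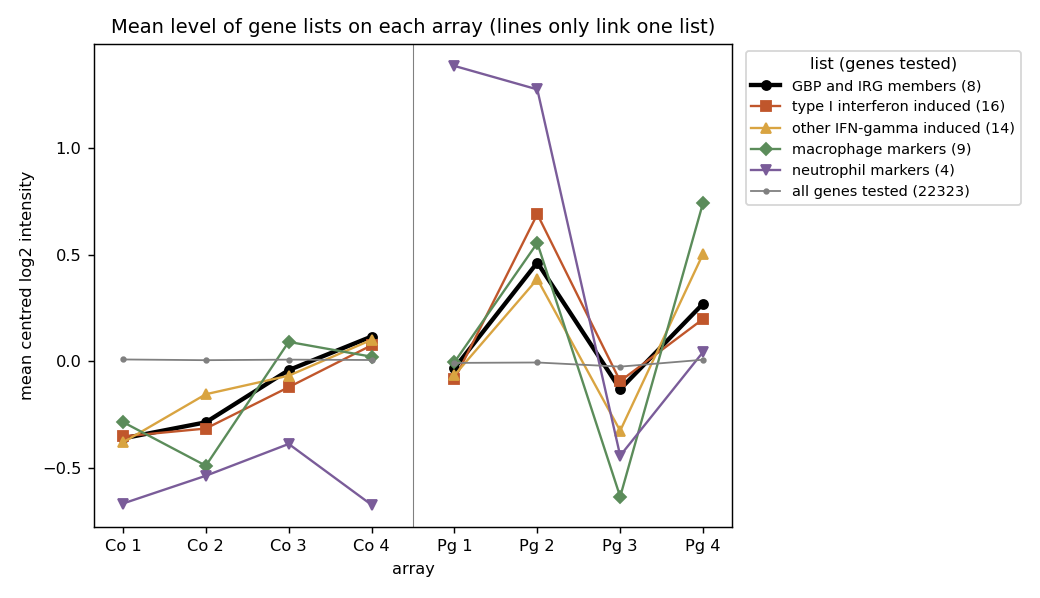
Mean log2 intensity, centered on each gene's mean over the 8 arrays, of the members and of 5 reference lists on each array. The members (black) share the high values on Pg 2 and Pg 4 with the interferon-induced genes and the macrophage markers, while the neutrophil markers are highest on Pg 1 and all genes tested stay near 0.

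The genes whose profile over the arrays came closest to the mean profile of the members were named by the root mean square difference between centered log2 profiles, over 19633 genes well above background on all 8 arrays. Among the 8 closest genes that are no members were *Phf11d* (0.045), *Uba7* (0.066), *Rnf213* (0.067), *Ly6e* (0.070), *Gm1966* (0.074), *Lgals3bp* (0.075) and *Cnrip1* (0.075), where the median of all genes was 0.298. *Uba7* encodes the activating enzyme of ISG15 conjugation, *Rnf213* a ubiquitin ligase and *Ly6e* an interferon-inducible membrane protein. *Phf11d* had log2 intensities of 8.57, 8.65, 8.81 and 9.07 in Co mice and 8.92, 9.44, 8.90 and 9.22 in Pg mice. Its log2 fold change was 0.34 (q = 0.238 in limma). None of the 8 was called. Of the members themselves, *Irgm2* (0.069) and *Igtp* (0.070) lay nearest to the mean profile and *Gbp5* (0.327) and *Iigp1* (0.390) farthest from it, *Iigp1* with a wider range over the arrays.

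The log2 fold changes were also set beside the motifs of the promoters. Of the members with both motifs, *Gbp5*, *Gbp7*, *Irgm2* and *Igtp* had log2 fold changes of 0.02 to 0.33. *Tgtp1* also held both but had no probe of its own, and the probe it shares with *Tgtp2* was at 0.79. Those with the ISRE core alone, *Gbp2*, *Gbp3* and *Irgm1*, had values of -0.03 to 0.51, so the ranges overlapped. With so few genes this is a description only.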

How the data were processed

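Per the labels and the methods, RNA of BAT from 4 Co and 4 Pg mice was hybridized to Agilent one-color arrays. The scanner files that the authors deposited (Agilent Feature Extraction 11.0.1.1) hold 1 array each, and their Cy3 intensities had been background-subtracted and detrended but not normalized between arrays, and a table of their own quantile-normalized log2 values with fold changes, p-values and other limma results, which were not used. That table served as an alternative only. In R 4.3.3, spots without a population outlier mark were averaged per probe, quantile-normalized between arrays and taken to log2 with a floor of 1. Of 56605 probes, 33819 passed the filter of 4 arrays or more well above background. They were compared with limma 3.58.1 (lmFit and eBayes, two-sided, Benjamini-Hochberg adjustment over all probes tested). The same fit was also run on data simulated from the means and spreads of these arrays. A p-value here sets the difference between the groups against the spread between these arrays, which limma moderates with that of all probes.

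The members and lists were chosen with earlier results of these data known, so no test was run over a list. Names came from a rule: all members, of each other list the genes called and up to 3 with the largest absolute log2 fold changes among genes well above background on all 8 arrays, and the 8 genes closest in profile. *Gm12185*, *Ciita*, *Pecam1*, *Ckm*, *Gm4951* and the genes above background on no array were named after their values were seen. Some genes that the rule picked are not reported here. Probe names are those of the array's design. The settings tried beside these were normexp background correction (mean signal, offset 50), the median signal, scaling to the 75th percentile, no normalization, other filters on dim probes, a floor of 16, a trended robust variance, the authors' log2 values, the replicate number as a block and each array left out. The replicate numbers follow the slide column.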

Additional observations from a re-analysis of the deposited data

Results flagged for a closer look

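Of 26 groups of 4 arrays (13 member probes in Co and in Pg mice), 1 held an array far from the others, and chance gives about 1 in 20. The *Irgm1* probe for ENSMUST00000147151 had a log2 intensity of 3.62 on Co 1, with the other Co arrays between 2.07 and 2.22, so the gap to the nearest was 0.904 of the range. This probe was well above background on none of the 8 arrays, and its values enter no comparison.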

How the results depend on the processing

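No probe that stood for a member was called under any of the 19 settings. Their further tested probes were not called either, under every setting that held them (the 2 further *Irgm1* probes had no value under the authors' normalization). The number of members with a higher mean in Pg mice was 7 of 8 under every setting that used all arrays, and ran from 6 (without Co replicate 4) to 8 (without Co replicate 3) with 1 array left out. The median log2 fold change of the members was 0.21, between 0.19 (normexp) and 0.29 (no normalization) under the other processing settings, and between 0.09 and 0.33 with 1 array left out. The log2 fold change of *Irgm1* turned to 0.0069 without Co replicate 3 and to 0.024 without Pg replicate 3, within a range of -0.082 to 0.024 with 1 array left out. That of *Gbp5* turned to -0.041 without Co replicate 4 and to -0.016 without Pg replicate 3, within a range of -0.041 to 0.053. The cause was not tested. No other sign of a tested member probe changed. The signal of the tested member probes was well above background on all arrays.

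Same-numbered Co and Pg arrays had correlations of their deviations from the group means of 0.06, -0.03, -0.07 and 0.18 for numbers 1 to 4. Pairs with unlike numbers ran from -0.15 to 0.13. Such values cannot show whether the mice were paired, and the labels name no pairing. With the replicate block, 0 probes were called, 7 of 8 members had a higher mean in Pg mice, their median was 0.21, and the q of *Iigp1* was 0.179 from limma. Over all probes, 106 were called higher and 440 lower in Pg mice. These counts were 20 and 7 without normalization, 66 and 28 with normexp, 75 and 33 with the median signal, 137 and 146 when arrays were scaled to their 75th percentile, 107 and 211 among probes well above background on all 8 arrays, and 60 and 46 with the authors' values. With 1 array left out they ran from 1 and 2 (without Co replicate 3) to 182 and 515 (without Pg replicate 3).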
